A study of Mus musculus with 24 samples.

Results

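Normal B cell maturation in mouse bone marrow was examined by setting 5 arrays of wild-type B220+ marrow B cells against 4 arrays of wild-type pro-B and pre-B cells, 9 of the 24 samples of the series. The groups were formed by sample title, with earlier results of these data known. Every gene that the array annotation pairs with 1 symbol was compared, 19938 genes in all. The other 15 arrays came from mice with the Sca1-BCR/ABLp190 transgene, Pax5+/- or not, and enter here only where they are named. Neither wild-type group carried the transgene or was treated.

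B220 is the form of CD45 found on cells of the B lineage from the pro-B stage onwards. A group sorted on B220 alone can itself hold pro-B and pre-B cells, immature B cells and mature B cells that have returned to the marrow. Plasmacytoid dendritic cells and some NK cell precursors also carry B220. The labels call the second group pro-B and pre-B cells. They give no surface marker for that group, none but B220 for the B220+ group, and no age or strain. Animals were kept under conventional, not pathogen-free, conditions. The design text counts 3 wild-type mice for the pro-B/pre-B group, while the labels give 4 samples. The sources used here do not say whether the groups came from the same mice or were sorted and hybridised together. A batch and the cell stage therefore cannot be told apart. The titles call the samples biological replicates, and the p-values set each difference against the spread between arrays within a group. For the pro-B/pre-B group that spread may not lie wholly between mice.

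B cells arise in the marrow through ordered stages. Pro-B cells recombine the immunoglobulin heavy chain locus with the RAG proteins and grow in response to IL-7, and large pre-B cells divide under a pre-B receptor made of the heavy chain and the surrogate light chain. Small pre-B cells leave the cycle and recombine a light chain, after which immature and then mature B cells carry a B cell receptor, gain MHC class II, complement and Fc receptors, and respond to the chemokines of lymphoid follicles. PAX5 and EBF1 hold the B lineage identity through all of these stages.

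All values are log2 array levels as deposited, and a difference is the B220+ mean minus the pro-B/pre-B mean, given with its standard error. A gene was called changed at an adjusted p under 0.05 (limma, Benjamini-Hochberg adjustment over all 19938 genes). Log2 levels of different genes are not strictly comparable on an array, so the groups are compared only within a gene. Percentiles over all genes serve only as a rough mark of how near a level lies to the lowest on the array. The array number limits the precision.

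By this test 4783 genes differed, 24% of those tested. Of these, 2393 (12% of genes tested) were higher in B220+ cells and 2390 (12%) were lower. The counts of gene lists below stand beside these shares of 24% called and 12% in each direction. The calls split evenly, with 50% higher, but when each array was centred on its own median the split was 60.6% higher (3031 higher and 1968 lower). The difference reached 1 log2 unit in 462 genes, 159 higher and 303 lower. The levels of the groups did not overlap on any array for 4495 genes (22.5%), of which 4021 were also called. The median difference over all genes was 0.0035. Estimating the spread from all 24 arrays, leukaemias included, left 1762 calls. Counts by that estimate are given for the gene groups whose calls it lowered most.

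The arrays separated by group along the first principal component, which held 61.4% of the variance over the 9 arrays. Correlations between arrays over all genes were 0.979 to 0.995 within B220+ cells, 0.992 to 0.995 within pro-B/pre-B cells, and 0.969 to 0.985 between the groups. The median SD of a gene was 0.11 in B220+ cells and 0.08 in pro-B/pre-B cells. B220+ array 1 stood apart, with a relative array weight of 0.266 where the others lay between 0.762 and 1.94, and the highest mean of the neutrophil genes (9.98). Without it 5619 genes were called, 3117 higher and 2502 lower.

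**Figure D1:**
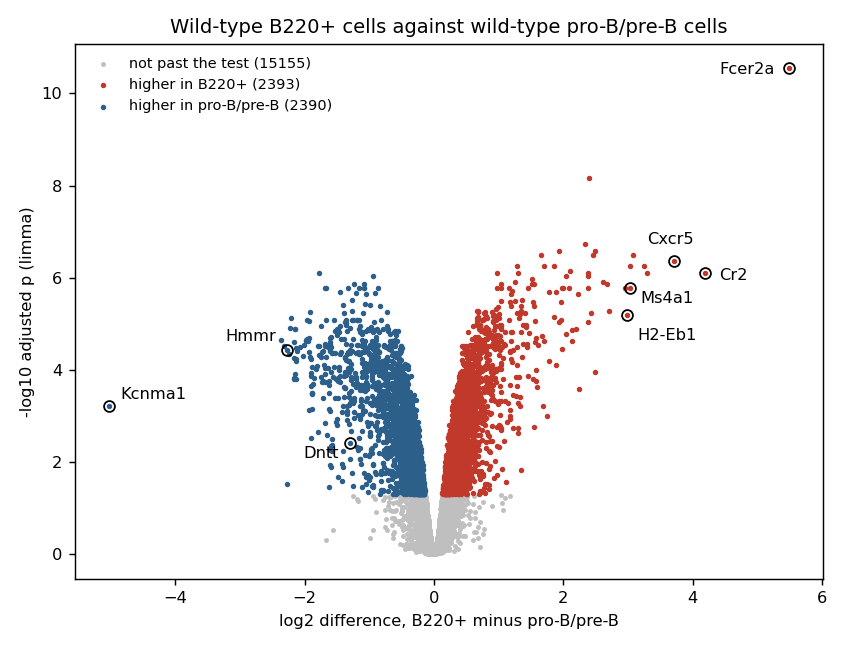
Difference of each of the 19938 genes (x axis, log2, B220+ minus pro-B/pre-B, 5 arrays against 4) against the -log10 of its adjusted p from limma (y axis), 1 point per gene. Fcer2a lies alone at the top right, at a difference of 5.48, and Kcnma1 at the far left, at -5.02.

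Both groups carried the B lineage markers, and these were mostly higher in the B220+ cells. Of 10 measured B lineage genes 7 were higher and 0 lower, with a median difference of 0.33. The mean level of the list lay between 12.26 and 12.42 on the B220+ arrays and between 11.74 and 11.92 on the pro-B/pre-B arrays. Only 1 gene of the list was called when the spread came from all 24 arrays. Pax5, the factor that commits cells to the B lineage, stood at 12.24, 12.45, 12.42, 12.20 and 12.34 in B220+ cells and at 11.86, 11.81, 11.93 and 12.02 in pro-B/pre-B cells. All B220+ arrays were above all pro-B/pre-B arrays, by 0.42 ± 0.07 (SE, adjusted p = 0.00098). Cd79a, which encodes a signalling chain of both the pre-B receptor and the B cell receptor, was higher by 0.41 ± 0.07 (adjusted p = 0.0018). Ebf1 differed by 0.004 and was not called. Ighd and Igkc were not measured here.

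Most of the genes that rose most encode surface proteins of mature B cells. Fcer2a encodes CD23, the low-affinity IgE receptor of follicular B cells. Its levels were 11.45, 11.80, 11.61, 11.69 and 11.54 in B220+ cells and 6.13, 6.02, 6.17 and 6.22 in pro-B/pre-B cells. The arrays of each group lay close together and far from the other group, a 44.7-fold difference (5.48 ± 0.07 log2, adjusted p = 2.85e-11). The pro-B/pre-B level lay at the 35.3rd percentile of all genes, low on the array, so the fold is approximate. Cr2, which encodes the complement receptor CD21, stood at 8.99, 10.27, 9.85, 9.92 and 9.56 against 5.56, 5.52, 5.49 and 5.55. The pro-B/pre-B arrays were nearly level and the B220+ arrays more spread, with array 1 the lowest, and the difference was 4.19 ± 0.20. The pro-B/pre-B level lay at the 21.6th percentile of all genes, near the lowest levels of the array, so the difference is best read as at least 18.2-fold. Ms4a1 encodes CD20, the membrane protein targeted by rituximab. It was already well above the lowest levels of the array in pro-B/pre-B cells, at 10.15, 10.01, 9.19 and 9.50, and reached 12.65, 12.78, 12.80, 12.78 and 12.69 in B220+ cells, a difference of 3.03 ± 0.17 (8.15-fold).

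In the list of mature B cell surface genes 29 of 36 measured members were higher and 1 was lower, with a median difference of 1.16 against 0.0035 over all genes. Cd83, an activation marker that stabilises MHC class II at the surface, rose by 3.03 ± 0.14. Tlr1, a partner of TLR2 in sensing bacterial lipopeptides, rose by 2.95 ± 0.16. Icosl, the ligand through which B cells engage ICOS on T cells, rose by 2.67 ± 0.14. Fcrl1 (2.46), Fcmr, the Fc receptor for IgM (2.40), the inhibitory receptor Btla (2.34) and the costimulatory ligand Cd86 (1.98) followed. Cd22, a sialic acid-binding inhibitor of B cell receptor signalling, rose by 1.70 ± 0.08 and Cd40, the receptor for T cell help, by 1.42. Lair1, a collagen receptor, was the 1 member that fell, by 1.40, with overlapping arrays. The spread of all 24 arrays gave 21 members higher and 0 lower.

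The 12 largest rises also held 4 genes outside these lists. Ms4a4c, of the same tetraspan family as CD20, rose by 3.29 ± 0.16 and Pxdc1 by 3.24 ± 0.14. The pro-B/pre-B levels of Pxdc1 and Tlr1 also lay low on the array, at the 32.9th and 34.6th percentiles of all genes. Adck1, of a family of atypical kinases, rose by 3.08 ± 0.12 on its brighter probe set and by 0.24 on its other probe set. Pgap1, which remodels GPI anchors, rose by 2.70 ± 0.18, and by 0.67 on its other probe set. The values of these 2 genes therefore differ by probe set.

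**Figure D2:**
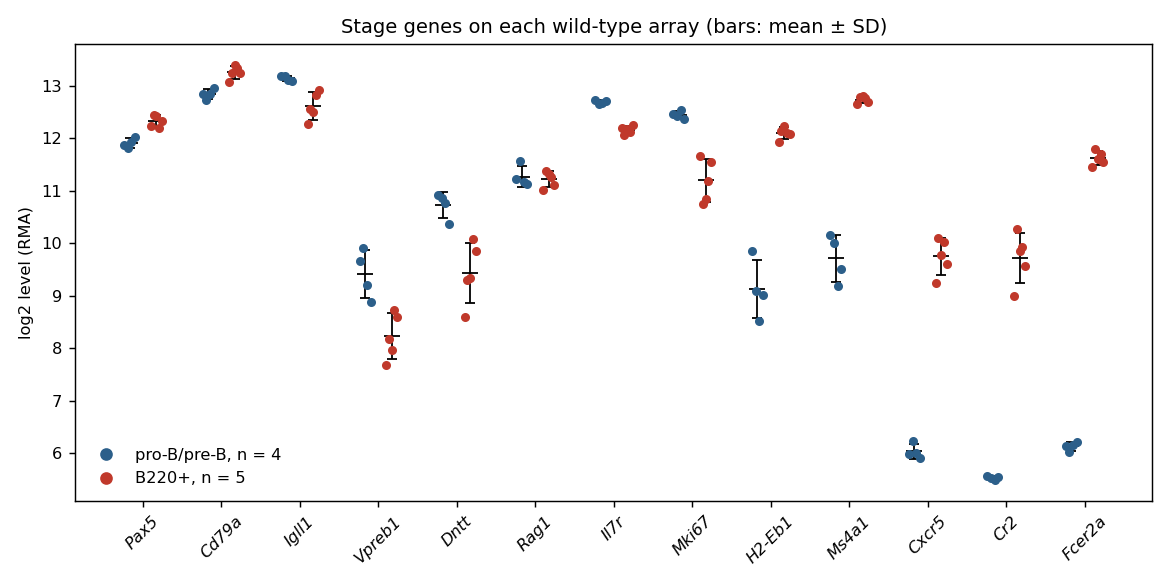
Log2 level of 13 stage genes on each wild-type array, pro-B/pre-B in blue (n = 4) and B220+ in red (n = 5), with mean and SD as bars. Fcer2a, Cr2, Cxcr5, Ms4a1 and H2-Eb1 are far higher on all B220+ arrays, Igll1, Vpreb1, Dntt, Il7r and Mki67 are lower there, and the Rag1 points overlap.

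MHC class II genes, whose products present peptides to helper T cells, rose almost as a block. Of 16 measured members 15 were higher and 0 lower, with a median difference of 1.51. H2-Eb1, a class II beta chain, stood at 11.94, 12.14, 12.24, 12.10 and 12.09 in B220+ cells and at 9.86, 9.10, 8.52 and 9.01 in pro-B/pre-B cells. No arrays overlapped, and the pro-B/pre-B arrays were the more spread, with array 1 the highest (difference 2.98 ± 0.21, 7.89-fold, adjusted p = 6.28e-06). H2-Aa, a class II alpha chain, read 12.64, 12.78, 12.76, 12.61 and 12.58 against 11.55, 10.96, 10.93 and 11.51, a rise of 1.44 ± 0.13. H2-Ab1 rose by 1.89, H2-Eb2 by 2.38, and the peptide-loading chains H2-DMa by 1.97 and H2-Oa by 2.10. Ciita, the coactivator that switches these genes on, rose by 1.58 ± 0.13, from 8.21 ± 0.23 (SD, n = 4) to 9.80 ± 0.24 (SD, n = 5). Its DNA-binding partners moved less: Rfx5 by 0.45, Rfxank by 0.33, and Rfxap by 0.10 without a call. The spread of all 24 arrays gave 11 calls.

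The chemokine and lipid receptors that guide B cells to follicles rose. Of 25 measured homing genes 14 were higher and 2 lower, with a median difference of 0.42. Cxcr5, the receptor for the follicular chemokine CXCL13, read 9.24, 10.09, 9.78, 10.03 and 9.60 in B220+ cells and 5.99, 6.24, 6.00 and 5.91 in pro-B/pre-B cells. The groups lay far apart, a 13.1-fold difference (3.71 ± 0.16, adjusted p = 4.24e-07). Gpr183, which senses oxysterols at the follicle edge, rose by 2.14 ± 0.19, P2ry10 by 2.14 ± 0.17 and Ccr6 by 1.98 ± 0.11. The pro-B/pre-B levels of Cxcr5 and Ccr6 lay low on the array, at the 33.3rd and 23.9th percentiles of all genes, so these sizes are approximate. Ccr7, the receptor that draws cells to T cell zones, was higher by 1.16 ± 0.08, and S1pr1, the receptor for exit into blood, by 1.04. Cxcr4, which holds B cells in the marrow near CXCL12, read 12.03, 12.02, 12.17, 12.03 and 12.22 against 12.16, 12.33, 12.16 and 12.21. Those arrays overlapped and the difference of -0.12 ± 0.06 was not called (adjusted p = 0.201). Ccr2, the receptor for monocyte chemokines, fell by 1.93 ± 0.29 and the integrin chain Itgb1 by 0.44.

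Antigen receptor signalling genes rose less and less uniformly. Of 34 measured members 18 were higher and 2 lower, with a median difference of 0.23, and 25 were higher without B220+ array 1. Bank1, a B cell scaffold of this pathway, rose by 2.49 ± 0.09 (11.76 ± 0.18 against 9.27 ± 0.12, SD) and Rasgrp3, which activates RAS downstream of the receptor, by 2.38 ± 0.12. Lat2 (0.95), Rasgrp1 (0.89) and the phosphatase gene Ptpn6 (0.74) followed. The core kinases and adaptor Syk (0.14), Blk (0.16) and Blnk (0.09) were not called, whereas Btk was higher by 0.32. Fyn fell by 0.63 and Vav3 by 0.49. When the spread came from all 24 arrays, 5 were called higher and 1 lower.

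NF-kB genes, which carry survival signals from the B cell receptor, CD40 and the BAFF receptor, were higher in 15 of 20 measured members and lower in 0, with a median difference of 0.43. Bcl3, a nuclear partner of the p50 and p52 subunits, stood at 9.97, 10.20, 10.27, 10.05 and 10.12 in B220+ cells and at 8.61, 8.27, 8.83 and 8.91 in pro-B/pre-B cells. The arrays were well separated (1.47 ± 0.12, adjusted p = 1.59e-05). Nfkb2 rose by 0.95 ± 0.07, Traf5 by 0.77, Relb by 0.76 and Nfkbid by 0.76. On all 24 arrays' spread 9 were called. Among 20 BCL2 family and survival receptor genes 7 were higher and 2 lower, with a median of 0.15. The BAFF receptor gene Tnfrsf13c rose by 1.17 ± 0.07 and its relative Tnfrsf13b by 0.91 ± 0.07. Bmf, a BH3-only death factor, rose by 0.73, the caspase inhibitor Birc3 by 0.56 and Bcl2a1c by 0.55. The pro-B/pre-B level of Bcl2a1c lay low on the array, at the 16.3rd percentile of all genes, so its size is approximate. Mcl1, which is pro-survival, rose by 0.45 and Bak1 by 0.42, while the pro-survival genes Bcl2l1 and Bcl2l2 were lower by 0.31 and 0.41. The Mcl1 and Bak1 calls held with the spread of all 24 arrays, and those of Bmf, Birc3, Bcl2a1c and Bcl2l1 were lost.

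Bcl2 itself read 9.61, 9.83, 9.56, 9.65 and 9.37 against 9.74, 9.08, 9.18 and 9.08. Pro-B/pre-B array 1 lay among the B220+ arrays, apart from the other 3 of its group. The difference of 0.33 ± 0.14 was not called (adjusted p = 0.114), and without that array it was 0.49 (adjusted p = 0.0046).

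Transcription factors of the B lineage moved in both directions. Of 51 measured 24 were higher and 6 lower, with a median of 0.16. The largest rises were in Pou2f2, which encodes OCT2 (1.10 ± 0.09), Bhlhe41 (1.09 ± 0.21), Bcl6, the germinal centre repressor that is also active in pre-B cells (1.04 ± 0.11), and Klf4, a factor of cell quiescence (0.99 ± 0.14). Klf2, which maintains the resting state and trafficking of lymphocytes, rose by 0.81. Erg, an ETS factor of early progenitors, fell from 10.34, 10.44, 10.39 and 10.28 to 8.62, 9.37, 9.11, 9.57 and 9.60. Its pro-B/pre-B arrays were tight and above all B220+ arrays (-1.11 ± 0.17, adjusted p = 0.00088). Lef1, a WNT pathway factor of pro-B cells, fell by 0.85, and Myc by 0.59 ± 0.08. The early factors Tcf3 (0.11), Ikzf1 (0.08) and Foxo1 (0.14) were not called. When the spread came from all 24 arrays, 8 were called higher and 0 lower.

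**Figure D3:**
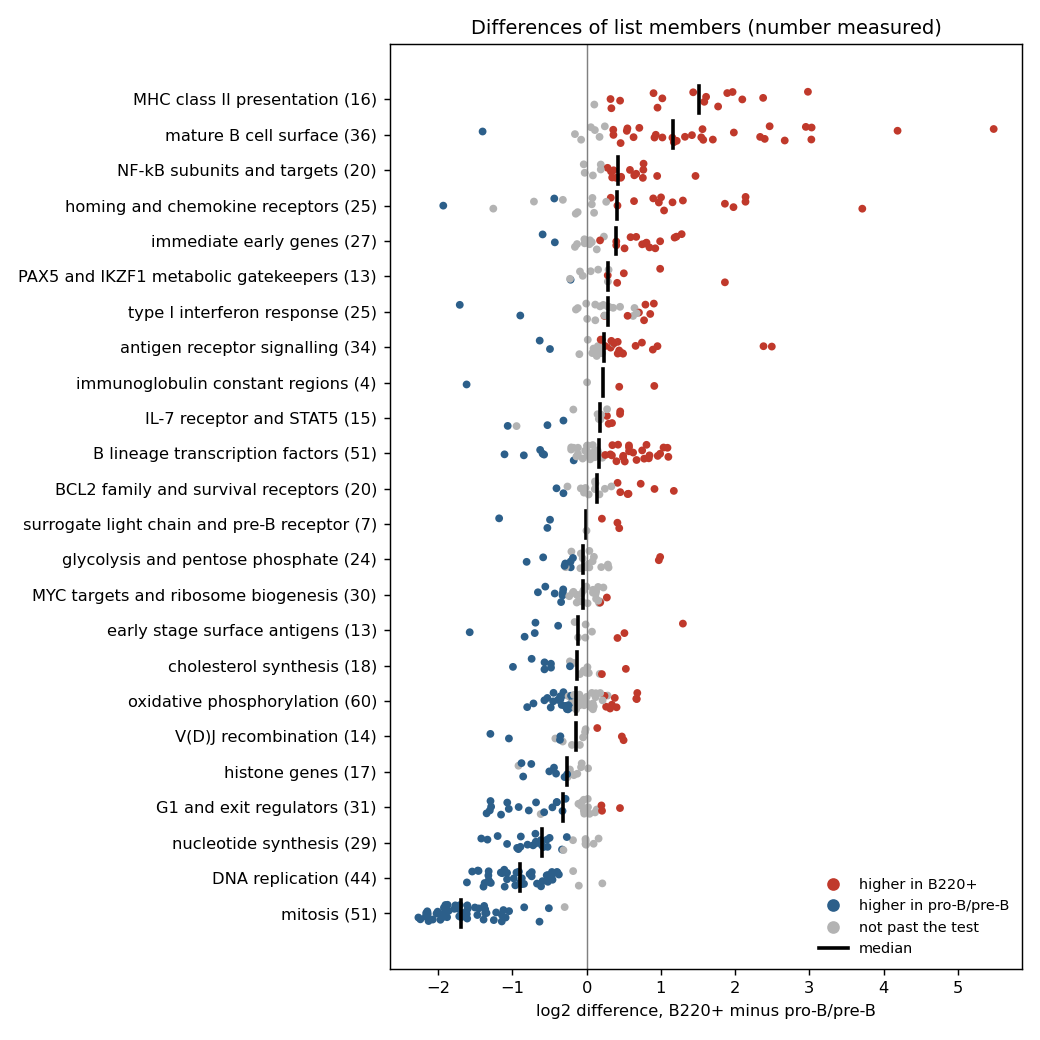
Differences (x axis, log2, B220+ minus pro-B/pre-B) of the measured members of 24 gene lists, 1 point per gene and number measured in brackets, ordered by median (black bar). Mitosis (median -1.69) and DNA replication (-0.89) lie at the low end and MHC class II (1.51) and mature B cell surface (1.16) at the high end.

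Several genes of the early stages were lower in B220+ cells, while others did not pass the test or were higher. The surrogate light chain, formed by the products of Igll1 and the Vpreb genes, pairs with the heavy chain in the pre-B receptor. Igll1 read 12.27, 12.56, 12.49, 12.83 and 12.92 in B220+ cells and 13.19, 13.19, 13.12 and 13.08 in pro-B/pre-B cells. Every B220+ array was lower, and B220+ array 1 the lowest (-0.53 ± 0.12, 1.44-fold, adjusted p = 0.0069). Vpreb1 read 7.68, 8.18, 7.97, 8.74 and 8.60 against 9.67, 9.90, 9.20 and 8.87. Its groups did not overlap, and B220+ array 4 came closest to pro-B/pre-B array 4 (-1.18 ± 0.25, 2.26-fold). Vpreb2, a near-identical copy whose probes may also read Vpreb1, was lower by 0.49 ± 0.10, and Vpreb3 differed by -0.002 without a call. In this list of 7 genes 3 were higher (Cd79a, Cd79b, Ighm) and 3 lower, and none of the 6 was called with the spread of all 24 arrays.

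Genes of V(D)J recombination split. Of 14 measured 4 were lower and 3 higher, with a median of -0.14. Dntt encodes TdT, which adds untemplated bases at heavy chain joints in pro-B cells. It read 8.59, 9.30, 9.33, 10.08 and 9.86 in B220+ cells and 10.92, 10.86, 10.77 and 10.37 in pro-B/pre-B cells. The groups did not overlap, and B220+ array 1 was the lowest (-1.30 ± 0.26, 2.46-fold, adjusted p = 0.0038). Rag1, a subunit of the recombinase, read 11.02, 11.38, 11.32, 11.27 and 11.12 against 11.22, 11.56, 11.17 and 11.13. The groups overlapped and the difference of -0.05 ± 0.10 was not called (adjusted p = 0.802, 95% interval -0.27 to 0.18). Rag2, the other subunit, differed by -0.32 ± 0.14 without a call (adjusted p = 0.136), and by -0.46 without pro-B/pre-B array 4 (adjusted p = 0.0158). Hmgb2, a RAG cofactor that is also abundant in dividing cells, fell by 1.05, and the end-joining genes Xrcc6 and Lig4 by 0.36 and 0.35. The polymerase gene Polm, used at light chain joints, was higher by 0.50 and Paxx by 0.47. On the 24-array spread 1 was called in each direction.

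IL-7 signalling, which drives growth of pro-B and large pre-B cells, showed calls in both directions, 5 of 15 measured genes higher and 3 lower, with a median of 0.19. Il7r, the receptor chain, read 12.20, 12.06, 12.17, 12.13 and 12.25 in B220+ cells and 12.72, 12.66, 12.67 and 12.71 in pro-B/pre-B cells. Both groups were tight and separate (-0.53 ± 0.05, 1.44-fold, adjusted p = 3.41e-05). Socs2, a STAT5-induced feedback inhibitor, fell by 1.06 ± 0.23 with overlapping arrays, while the related Socs1 rose by 0.45 and the survival kinase gene Pim2 by 0.45. Stat5a (0.16) and Stat5b (0.19) were not called. None of the 8 calls held with the spread of all 24 arrays.

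Early surface antigens were lower in 5 and higher in 3 of 13 measured genes, with a median of -0.12. Flt3, the cytokine receptor of lymphoid progenitors, read 7.40, 6.74, 6.94, 8.56 and 7.07 in B220+ cells and 9.31, 8.86, 8.64 and 8.85 in pro-B/pre-B cells. B220+ array 4 came close to the lowest pro-B/pre-B array and the others lay well below (-1.58 ± 0.32). Kit, the stem cell factor receptor, fell by 0.70 ± 0.10, from 7.46 ± 0.17 to 6.76 ± 0.18 (SD). Spn, which encodes the pro-B marker CD43, fell by 0.69, and Enpep, which encodes BP-1, by 0.84 with overlapping arrays (adjusted p = 0.0491). The Enpep call was lost when any 1 of 6 arrays was left out (adjusted p up to 0.141), with median centring (0.0618) and with the replicate block (0.0977). Ly6d, which marks B-committed progenitors and later B cells, rose by 1.30 ± 0.24, with pro-B/pre-B array 3 at 10.70 and the other 3 between 11.78 and 11.88. With the spread of all 24 arrays 2 were called, both lower.

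Only 4 immunoglobulin constant region and joining chain genes were measured. Ighm, the mu heavy chain gene, read 11.33, 11.82, 11.68, 11.25 and 11.77 against 11.14, 10.94, 11.25 and 11.18. B220+ array 4 overlapped the pro-B/pre-B arrays, and the difference of 0.44 ± 0.12 (adjusted p = 0.0254) was lost when any 1 of 5 arrays was left out. Its other 2 probe sets differed by 0.45 and 0.52. Igha was higher by 0.91 ± 0.08, and by 1.08 on its other probe set. Its pro-B/pre-B level already lay at the 97.9th percentile of all genes, and what its probes read there was not tested. Jchain, which joins IgM and IgA into polymers, read 6.61, 6.12, 6.52, 6.88 and 7.12 against 8.86, 7.68, 9.73 and 6.81. Pro-B/pre-B array 4 was within the B220+ range while array 3 was far above it (-1.62 ± 0.49, adjusted p = 0.0343). The Jchain call was lost when any 1 of 6 arrays was left out, with an adjusted p of 0.0771 without pro-B/pre-B array 3 and at most 0.101, without array 1 of that group. The constant region list thus gave 2 higher and 1 lower of 4. Of 13 measured plasma cell genes, which include Igha and Jchain, 3 were higher and 3 lower, with a median of 0.0058. Without B220+ array 2 or array 3 the plasma cell list gave 2 higher and 1 lower, and 1 was lower also without pro-B/pre-B array 1 or array 3. Neither list had a call on the spread of all 24 arrays.

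Cell division genes were the broadest group to fall. Of 51 measured mitosis genes 50 were lower in B220+ cells and 0 higher, with a median of -1.69, against 12% lower among all genes. Pttg1, which encodes securin, was the 1 member not called (-0.30). The mean of the list was 9.01, 8.17, 8.37, 8.72 and 9.01 on the B220+ arrays and 10.24, 10.27, 10.36 and 10.21 on the pro-B/pre-B arrays. The pro-B/pre-B arrays were nearly level and the B220+ arrays were all lower and more spread, with arrays 1 and 5 highest and array 2 lowest. The count stayed at 50 when any 1 array was left out and was 49 with the spread of all 24 arrays.

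Hmmr, which encodes a hyaluronan-binding spindle protein, read 7.46, 6.26, 6.57, 7.08 and 7.22 in B220+ cells and 9.20, 9.25, 9.32 and 8.97 in pro-B/pre-B cells. No arrays overlapped (-2.27 ± 0.21, 4.81-fold, adjusted p = 3.63e-05). The centromere motor gene Kif2c fell by 2.24 ± 0.22, the checkpoint kinase gene Bub1 by 2.17 ± 0.26, the cytokinesis scaffold gene Anln by 2.16 ± 0.26 and the condensin gene Ncapg by 2.15 ± 0.25. The 12 largest falls with no overlap of arrays also held cell division genes outside the list, which were Cep55, needed for the final cut between daughter cells (-2.36 ± 0.20), Aspm of the spindle poles (-2.32 ± 0.21), the kinetochore gene Ska3 (-2.22 ± 0.17), Cip2a, an inhibitor of protein phosphatase 2A (-2.22 ± 0.16), the mitotic kinase gene Pbk (-2.17 ± 0.22) and the condensin II gene Ncapg2 (-2.16 ± 0.19). Mki67, the proliferation marker, read 11.66, 10.75, 10.84, 11.18 and 11.56 against 12.46, 12.42, 12.53 and 12.38. The B220+ levels were lower on every array (-1.25 ± 0.18, 2.38-fold).

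DNA replication genes were lower in 41 of 44 measured members and higher in 0, with a median of -0.89. Pole, the catalytic subunit of the leading strand polymerase, read 8.54, 8.13, 8.09, 8.47 and 8.80 in B220+ cells and 9.99, 9.90, 10.18 and 10.02 in pro-B/pre-B cells, well apart (-1.61 ± 0.14, adjusted p = 2.03e-05). Clspn, a mediator of the replication checkpoint, fell by 1.54, the primase-associated polymerase gene Pola1 by 1.47, the helicase gene Mcm6 by 1.46 and Tipin, which protects forks, by 1.39. Rfc1 (-0.11), Pold1 (-0.18) and the licensing factor gene Cdt1 (0.21) were not called. The 24-array spread gave 34 calls.

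Promoters of these genes were read for letters known from cell cycle genes, since the members moved together. Windows ran from 250 bases before to 50 after the RefSeq start (mouse build GRCm38.p6), and both strands were searched. The CHR letters TTTGAA, a cell cycle element of genes of mitosis, were in 33 of 44 windows of 42 mitosis genes (75.0%) against 17.9% of all 32851 windows. The E2F letters TTTCCCGC or TTTGGCGC were in 12 of 44 windows of 35 replication genes (27.3%) against 1.56% of all windows. CCAAT, the letters bound by NF-Y, was in 72.7% of the mitosis windows, 59.1% of the replication windows and 68.8% of 16 MHC class II windows, against 37.4% of all windows. In 33 windows of mature surface genes the shares were 15.2% for CHR and 30.3% for CCAAT. E2F letters were also in 3 of 44 mitosis and 1 of 14 V(D)J windows, and in 0 surrogate light chain, class II or mature surface windows. EBF1 letters TCCCNNGGGA were in 2 of 44 replication and 1 of 33 mature surface windows, against 0.904% of all windows. They were in 0 of 5 surrogate light chain, 14 V(D)J, 44 mitosis and 16 class II windows. So few windows cannot tell a 0 from that share. A match is a description of the letters and not a site or a cause. No motif of these contains another.

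The windows of the members with the largest falls whose matches lie no more than 30 bases past the start are shown, with 250 bases before the start and 30 after, 5′ to 3′ on the gene's strand. Capitals mark CHR on either strand in Hmmr (chr11:40733408-40733687, minus strand), Kif2c (chr4:117178743-117179022, minus strand) and Ncapg (chr5:45669675-45669954, plus strand). They mark E2F letters in Pola1 (chrX:93632126-93632405, minus strand) and Mcm6 (chr1:128359676-128359955, minus strand), and CCAAT letters in H2-Eb1 (chr17:34305617-34305896, plus strand), the class II gene with the largest rise. The match begins 8 bases after the start in Hmmr, 103 before it in Kif2c, 30 before it in Ncapg, and 138 before it in Pola1. Mcm6 has 2 matches, 110 and 47 bases before the start, and H2-Eb1 has 2, on opposite strands, at 59 and 35 bases before it.
Hmmr: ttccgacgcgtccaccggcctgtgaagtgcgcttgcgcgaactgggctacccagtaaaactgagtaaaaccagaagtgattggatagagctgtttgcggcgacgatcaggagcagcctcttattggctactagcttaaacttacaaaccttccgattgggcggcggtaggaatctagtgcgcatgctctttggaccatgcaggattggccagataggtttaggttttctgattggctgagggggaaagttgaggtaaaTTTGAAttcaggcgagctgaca
Kif2c: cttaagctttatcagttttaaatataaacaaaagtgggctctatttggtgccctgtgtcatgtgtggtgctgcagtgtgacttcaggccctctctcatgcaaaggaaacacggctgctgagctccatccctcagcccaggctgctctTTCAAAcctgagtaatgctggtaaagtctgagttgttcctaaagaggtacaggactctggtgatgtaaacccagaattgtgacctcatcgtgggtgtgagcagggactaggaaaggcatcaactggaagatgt
Ncapg: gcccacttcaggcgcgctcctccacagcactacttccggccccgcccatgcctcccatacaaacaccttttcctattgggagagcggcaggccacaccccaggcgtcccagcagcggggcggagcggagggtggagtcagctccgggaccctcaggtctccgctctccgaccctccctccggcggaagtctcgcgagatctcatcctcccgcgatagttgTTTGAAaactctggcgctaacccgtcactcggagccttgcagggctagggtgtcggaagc
Pola1: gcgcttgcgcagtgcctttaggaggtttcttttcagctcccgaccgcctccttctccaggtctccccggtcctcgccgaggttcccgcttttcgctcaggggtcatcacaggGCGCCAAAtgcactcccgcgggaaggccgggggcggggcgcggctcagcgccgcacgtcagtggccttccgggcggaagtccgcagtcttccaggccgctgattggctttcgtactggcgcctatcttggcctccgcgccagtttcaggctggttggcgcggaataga
Mcm6: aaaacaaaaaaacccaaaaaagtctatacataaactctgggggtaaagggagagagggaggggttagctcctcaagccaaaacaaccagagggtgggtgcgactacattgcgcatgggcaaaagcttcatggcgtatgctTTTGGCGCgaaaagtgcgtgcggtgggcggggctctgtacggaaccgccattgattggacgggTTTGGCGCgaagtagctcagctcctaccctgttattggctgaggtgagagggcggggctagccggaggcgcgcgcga
H2-Eb1: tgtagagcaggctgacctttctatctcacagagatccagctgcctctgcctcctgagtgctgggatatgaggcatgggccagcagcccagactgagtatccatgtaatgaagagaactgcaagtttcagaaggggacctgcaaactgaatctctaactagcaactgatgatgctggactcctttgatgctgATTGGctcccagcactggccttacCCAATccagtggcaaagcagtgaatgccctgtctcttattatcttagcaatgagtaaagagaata

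Regulators of the G1 phase were lower in 16 and higher in 3 of 31 measured genes, with a median of -0.32. The atypical repressors E2f8 (-1.35 ± 0.22) and E2f7 (-1.29 ± 0.15), the E2F partner Tfdp1 (-1.30 ± 0.10), cyclin E1 (Ccne1, -1.30 ± 0.13) and the CDK inhibitor gene Cdkn2c (-1.15 ± 0.14) fell. Cdk6, the kinase partner of D cyclins in lymphoid cells, fell by 1.07 and Cdk4 by 0.40, while the D cyclin genes Ccnd2 (0.11) and Ccnd1 (-0.62) were not called and Ccnd3 fell by 0.32 with overlapping arrays. The 3 that rose, Btg1 (0.45), Rbl2 (0.21) and Cdkn1b (0.20), are linked to exit from the cycle. Exit genes did not rise as a class, since Cdkn2c, Cdkn2d (-0.46) and Ccng2 (-0.28) were lower. The Rbl2 call was lost without any 1 of 6 arrays and the Cdkn1b call without any 1 of 8. Rises in this list numbered 1 to 4 when 1 array was left out and 0 with the spread of all 24 arrays.

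Nucleotide synthesis genes were lower in 21 of 29 measured members and higher in 0, with a median of -0.61. Tyms, the thymidylate synthase gene, fell from 9.79 ± 0.22 to 8.37 ± 0.49 (SD), by 1.42 ± 0.22. The ribonucleotide reductase genes Rrm2 and Rrm1 fell by 1.34 and 1.07 and Dut, which clears dUTP, by 1.20. Mthfd1l, a mitochondrial one-carbon enzyme gene, fell by 0.94 ± 0.05, from 9.51, 9.47, 9.42 and 9.54 to 8.55, 8.54, 8.49, 8.54 and 8.62. Both groups were tight. Of 17 histone genes 8 were lower and 0 higher, with a median of -0.26, led by H4c6 (-0.88), H1f5 (-0.85) and H4c3 (-0.75). Copies of histone genes are near identical, so their probe sets may share signal.

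Energy metabolism did not move as a block. In glycolysis and the pentose phosphate pathway 7 of 24 measured genes were lower and 2 higher, with a median of -0.04. Aldoa, the aldolase gene, read 11.34, 11.38, 11.35, 11.44 and 11.40 in B220+ cells and 10.50, 10.41, 10.36 and 10.38 in pro-B/pre-B cells, tight and apart (0.97 ± 0.05, adjusted p = 7.93e-07). Slc2a1, the main glucose transporter gene, rose by 0.99 ± 0.09, from 9.40 ± 0.19 to 10.39 ± 0.10 (SD). The lactate transporter gene Slc16a1 fell by 0.81 ± 0.09 and Ldha, which makes lactate, by 0.59 ± 0.07. Hk2 (-0.22) and Tpi1 (-0.29) were also lower, but the Hk2 call was lost without any 1 of 7 arrays and under each of the 3 other scalings. The falls numbered 4 to 7 when 1 array was left out and 1 with the spread of all 24 arrays.

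Among metabolic gatekeepers, genes that PAX5 and IKZF1 act on in pre-B cells, 5 of 13 measured were higher and 1 lower, with a median of 0.28. The list was not split by whether these factors raise or lower a gene, so its median gives no direction of the programme. Cnr2, the cannabinoid receptor gene, read 9.44, 9.91, 9.75, 9.62 and 9.73 against 7.78, 7.78, 7.88 and 7.87, wholly apart (1.86 ± 0.08). Txnip, an inhibitor of glucose uptake, rose by 0.50 ± 0.08, Prkab1, an AMPK subunit gene, by 0.28 and the glucose transporter gene Slc2a6 by 0.41 with overlapping arrays. The Slc2a6 call (adjusted p = 0.0465) was lost when any 1 of 7 arrays was left out (up to 0.13) and with quantile (0.0724) or cyclic loess scaling (0.0825). Nr3c1, the glucocorticoid receptor gene, differed by 0.16 without a call. The 24-array spread gave 2 calls, both higher.

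Oxidative phosphorylation genes were lower in 22 and higher in 9 of 60 measured members, with a median of -0.14. Complex I members moved both ways: Ndufb6 fell by 0.80 ± 0.13, while Ndufs8 rose by 0.68 ± 0.05 and Ndufa7 by 0.68 ± 0.06. The ATP synthase c subunit genes also diverged, with Atp5g3 lower by 0.72 ± 0.06 and Atp5g1 higher by 0.67 ± 0.08, or by 0.57 on its other probe set. With the spread of all 24 arrays 9 were lower and 6 higher. Among 30 MYC targets and ribosome biogenesis genes 7 were lower and 2 higher, with a median of -0.05. That is 30% called, near the 24% of all genes. The nucleolar genes Npm1 (-0.66) and Nop58 (-0.56) fell most, and the falls numbered 4 to 8 when 1 array was left out. Without B220+ array 1 this list gave 6 higher and 7 lower with a median of 0.01, and with quantile scaling or array weights 6 higher and 8 lower. Cholesterol synthesis genes were lower in 7 and higher in 2 of 18, with a median of -0.13. Idi1 fell by 0.99 ± 0.17, Sqle by 0.74 and Cyp51 by 0.57, the last 2 with B220+ array 4 among the pro-B/pre-B arrays, while Srebf2, the regulator of the pathway, rose by 0.53.

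Immediate early genes, which respond within minutes to receptor signals and to cell handling, were higher in 15 and lower in 2 of 27 measured, with a median of 0.40. Junb read 9.24, 9.89, 10.21, 9.57 and 9.70 in B220+ cells and 8.40, 8.31, 8.49 and 8.58 in pro-B/pre-B cells (1.28 ± 0.16). Egr3 rose by 1.21 ± 0.07, Ier5 by 1.18 ± 0.12 and Fosb by 0.92 with overlapping arrays, a call lost without any 1 of 3 arrays. Jun (0.04) and Atf3 (0.06) were not called. The part of sample handling in these differences was not tested.

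Type I interferon response genes were higher in 7 and lower in 2 of 25 measured, with a median of 0.28. Their mean was 7.71, 7.82, 8.71, 8.37 and 7.71 on the B220+ arrays and lay between 7.76 and 7.88 on the pro-B/pre-B arrays. B220+ arrays 3 and 4 were high and the other 3 were near the pro-B/pre-B level. Oas2 read 7.38, 7.39, 8.51, 8.16 and 7.05 against 6.92, 6.81, 6.96 and 6.93 (0.79 ± 0.26, adjusted p = 0.0469), a call lost when any 1 of 7 arrays was left out. The number called higher was 4 without B220+ array 3, 3 without B220+ array 4 and 3 or 4 without any 1 of the pro-B/pre-B arrays. Ddx58, which encodes the RNA sensor RIG-I, rose by 0.91 ± 0.10 and Rsad2, which encodes viperin, fell by 1.71 ± 0.16, from 9.55, 10.10, 9.66 and 9.69 to 8.06, 7.80, 8.14, 8.51 and 7.69.

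Markers of other blood cells also differed, mostly lower in B220+ cells. A fall in a bulk sample can mean fewer cells of a type or less RNA per cell, and these cannot be told apart here. NK cell genes were lower in 12 and higher in 0 of 14 measured, with a median of -1.13. Their mean was 7.52, 6.79, 6.65, 7.53 and 6.93 on the B220+ arrays and 8.55, 8.16, 8.04 and 7.84 on the pro-B/pre-B arrays, with no overlap. Gzma, which encodes granzyme A, read 7.22, 6.89, 6.44, 7.98 and 7.08 against 9.36, 8.82, 8.97 and 8.89 (-1.89 ± 0.25). Klra8 fell by 1.89 ± 0.36, the activating receptor gene Ncr1 by 1.60 ± 0.34, Klrd1 by 1.58 and Klrb1c, which encodes NK1.1, by 1.48. With the spread of all 24 arrays 3 NK cell genes were called.

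Plasmacytoid dendritic cell genes were lower in 7 and higher in 0 of 11 measured, with a median of -0.89. The list mean was 8.34, 7.80, 8.06, 9.37 and 8.03 on the B220+ arrays and between 9.10 and 9.35 on the pro-B/pre-B arrays. B220+ array 4 was at the pro-B/pre-B level and the other 4 were below it. Siglech, a receptor that defines these cells, read 9.75, 8.47, 9.22, 10.98 and 9.25 against 11.38, 11.13, 10.95 and 11.13 (-1.61 ± 0.39), and Cd300c fell by 1.49 ± 0.40. The count of falls was 10 without B220+ array 4, 2 without pro-B/pre-B array 1, 4 without array 2 or 4 of that group, and 0 with the spread of all 24 arrays. Flt3 and Bst2, which belong both here and to lists described earlier, shared the high value of B220+ array 4.

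Erythroid genes were lower in 9 and higher in 0 of 11 measured, with a median of -0.70, and haemoglobin genes were not measured here. Slc4a1, the band 3 anion exchanger gene, lay between 8.71 and 9.68 in B220+ cells and between 9.90 and 10.51 in pro-B/pre-B cells, with no overlap (-1.11 ± 0.20). Alas2, the erythroid haem synthesis gene, fell by 1.02 ± 0.17, and Tfrc, the transferrin receptor gene that dividing cells of other types also use, by 0.90 ± 0.08. Gata1 (-0.09) and Klf1 (0.01), the erythroid transcription factor genes, were not called. Among 14 T cell genes 5 were lower and 0 higher, with a median of -0.12. Cd3g fell by 1.04 ± 0.17, Lat by 0.80, Thy1 by 0.68, Cd28 by 0.54 and Zap70 by 0.46 (the Thy1 call was lost without any 1 of 5 arrays), while Cd3e (-0.11), Cd3d (-0.08), Cd4 (-0.08) and Cd8a (-0.13) were not called. By the spread of all 24 arrays 1 erythroid gene, Tfrc, and 1 T cell gene, Lat, were called.

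Neutrophil and granulocyte precursor genes gave 0 calls of 20 in limma (median -0.05; 0 at an unadjusted p under 0.05), also when any 1 array was left out, but varied widely within both groups. Their median was -0.53 without B220+ array 1, 0.24 without B220+ array 3 and 0.37 without pro-B/pre-B array 2, so it had no settled sign. Their mean was 9.98, 6.94, 7.04, 8.59 and 8.17 on the B220+ arrays and 9.29, 9.14, 7.16 and 7.09 on the pro-B/pre-B arrays. B220+ array 1 and pro-B/pre-B arrays 1 and 2 were the highest. Mpo, the myeloperoxidase gene, differed by -0.63 ± 0.50 without a call. Monocyte and macrophage genes gave 1 higher, Adgre1 (0.38), and 2 lower, Ccr2 and Cd14 (-0.21), of 18, with a median of -0.08. The Cd14 call (adjusted p = 0.0381) was lost when any array but B220+ array 1 was left out, with median centring (0.0696) and with the replicate block (0.140), and the monocyte list then gave 1 or 2 lower. Megakaryocyte and platelet genes gave 2 higher of 8, Ppbp (1.14 ± 0.19) and Itgb3 (0.35), with a median of 0.02. Stroma and endothelium genes gave 0 calls of 14 by limma (median -0.05; 3 at an unadjusted p under 0.05), with Sparc nearest to the threshold (-0.22, adjusted p = 0.0700). Among 12 genes of basophils, mast cells and eosinophils Il5ra, which B1 cells also carry, was the 1 called (1.34 ± 0.09), with a median of 0.0055. Calls made up 16.7% of the monocyte list, 25% of the megakaryocyte list and 8.3% of the basophil list, against 24% of all genes. The monocyte, megakaryocyte and basophil lists had no call on the spread of all 24 arrays.

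Stem and progenitor genes were lower in 4 and higher in 2 of 12 measured, with a median of -0.08. The 4 that fell were Flt3, Kit, Egfl7 (-0.48) and Hoxa9 (-0.18). Slamf1, which encodes CD150 and is carried by stem cells and by mature lymphocytes, lay between 7.996 and 8.96 in B220+ cells, array 1 the lowest, and between 6.19 and 6.47 in pro-B/pre-B cells (2.39 ± 0.18), and Cd48 rose by 0.59. On the 24-array spread 1 gene of this list was called, higher. The part of these other cells in the differences of genes outside their own lists was not tested.

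**Figure D4:**
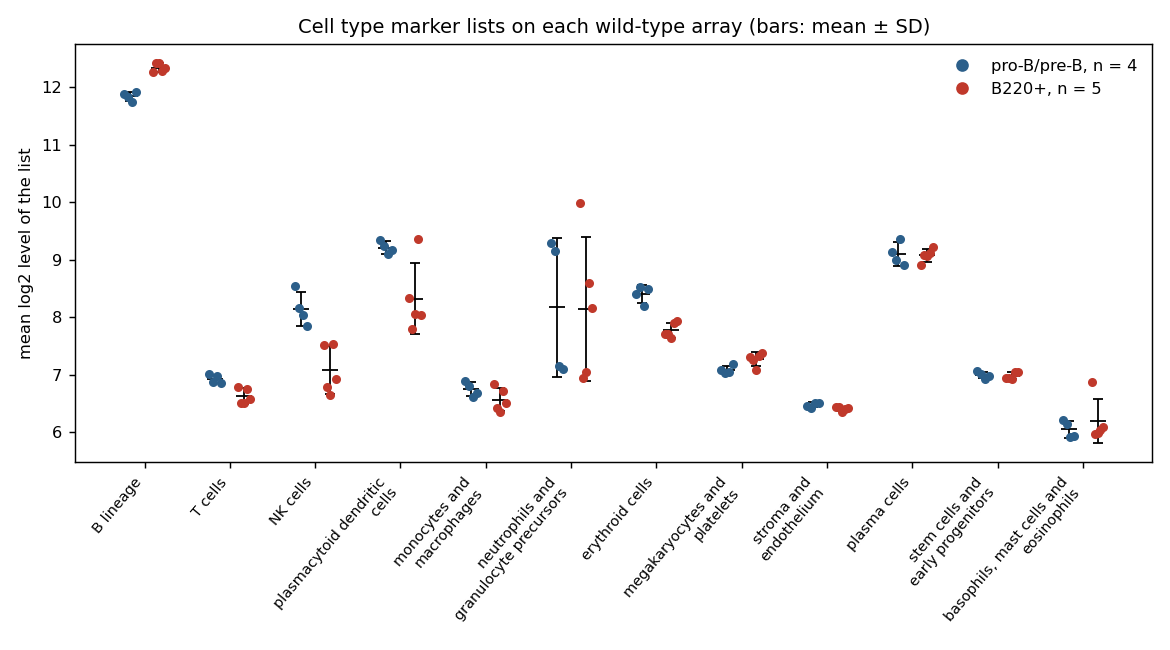
Mean log2 level of 12 cell type marker lists on each wild-type array, pro-B/pre-B in blue (n = 4) and B220+ in red (n = 5), with mean and SD as bars. B lineage, T cell, NK cell and erythroid means do not overlap between the groups. B220+ array 4 lies at the pro-B/pre-B level for plasmacytoid dendritic cells, and neutrophil means span 6.94 to 9.98 within B220+ cells.

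The largest fall of all genes past the test was in Kcnma1, which encodes a large-conductance calcium-activated potassium channel. Its levels were 6.79, 6.64, 6.09, 6.47 and 6.44 in B220+ cells and 12.62, 11.43, 13.29 and 8.68 in pro-B/pre-B cells. The B220+ arrays were uniformly low and the pro-B/pre-B arrays all higher but widely spread (-5.02 ± 0.74, 32.5-fold, adjusted p = 0.00059). Without pro-B/pre-B array 4 the difference was -5.96, and over all arrays left out in turn it ran from -5.96 to -4.42. A second, dimmer probe set of the gene read 5.38 to 5.45 in B220+ cells and 5.31 to 5.39 in pro-B/pre-B cells, a difference of 0.06, and did not follow the first. On the brighter probe set the 7 leukaemias of BCR/ABL Pax5+/- mice lay between 12.94 and 13.78 and the 2 BCR/ABL leukaemias at 11.52 and 13.50. The BCR/ABL pro-B/pre-B samples read 6.92, 13.88 and 6.26 and the BCR/ABL Pax5+/- pro-B/pre-B samples 13.89, 12.77 and 6.32, so each of those groups held both low and high samples.

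**Figure D5:**
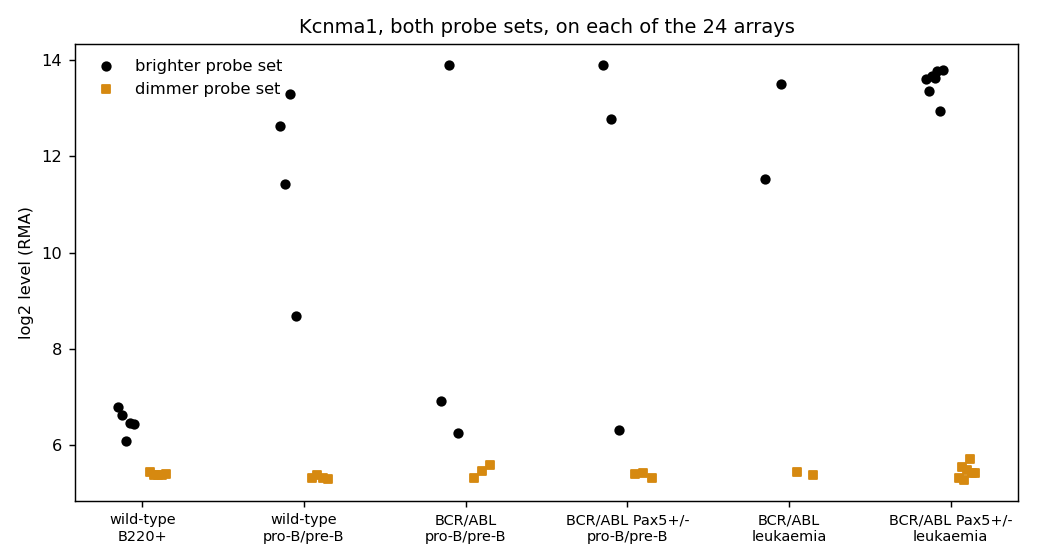
Log2 level of both Kcnma1 probe sets on each of the 24 arrays by group (x axis), brighter probe set as black circles and dimmer as orange squares. The brighter probe set is low on all 5 wild-type B220+ arrays and high or spread elsewhere, while the dimmer one stays low throughout.

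Ctse, which encodes the protease cathepsin E, also varied widely between arrays of 1 group. It read 11.83, 8.70, 11.88, 8.98 and 9.11 in B220+ cells and 12.39, 12.32, 12.34 and 12.43 in pro-B/pre-B cells. B220+ arrays 1 and 3 were close to the pro-B/pre-B arrays and the other 3 were far lower (-2.27 ± 0.67, adjusted p = 0.0302). The call was lost when any 1 of 7 arrays was left out, with adjusted p-values of 0.0653 to 0.0699.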

How the data were processed

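RNA from 24 mouse samples was hybridised to Affymetrix mouse gene arrays, and the 9 wild-type arrays are analysed here. The deposited values are log2 levels. The submitters' processing notes name RMA and the package oligo, without versions. The sources used here do not say whether the authors normalised all 24 arrays together. RMA subtracts background and equalises the distribution of arrays, so a shift of most genes one way would be reduced.

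Of 35556 probe sets 21789 carried 1 gene symbol in the platform annotation, 1621 several and 12146 none. Names were updated through RefSeq, which matched 21698. For each of 19938 genes the probe set with the highest mean over the 24 arrays was kept (999 genes had several). No column was left unmapped. Groups came from the sample titles. The groups were compared with limma 3.58.1 in R 4.3.3 (lmFit and eBayes, two-sided, Benjamini-Hochberg adjustment over all genes) on the 9 arrays, with no covariate. The fit was first tested on simulated data. The principal component, array weights and correlations used the same values.

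Of 870 entries in 36 gene lists 781 were measured, and no set test was run. The samples and lists were chosen with earlier results of these data known. Genes were named by a rule: 26 stage genes, of which 23 were measured, the 12 largest rises and 12 largest falls past the test with arrays that did not overlap, and up to 5 members of each list with the largest differences past the test. Other genes, such as the exceptions of a list, were named after their values were seen. Both groups carry replicate numbers 1 to 4, and deviations of same-numbered arrays correlated at 0.34, -0.35, 0.22 and -0.45, so the numbers were not taken to pair samples. The 19 alternatives changed scaling, spread, weights, filter, probe set, block or left out 1 array. The planned comparison of Vpreb1 and Vpreb2 proteins was not run.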

Additional observations from a re-analysis of the deposited data

Results flagged for a closer look

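In 22 of 414 groups of values from named genes and list means, 1 array lay far from the others of its group by Dixon's test, which chance alone gives in about 1 in 20 groups. The part of single arrays in the results was not tested beyond leaving each out.

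In B220+ array 1 the values were low for Derl3 (8.488, others 8.887 to 8.95), Lat2 (9.355, others 9.651 to 9.757), Slamf1 (7.996, others 8.77 to 8.964), Traf5 (9.942, others 10.47 to 10.65) and the mean of the NF-kB genes (9.626, others 9.819 to 9.882). The mean of the basophil, mast cell and eosinophil genes was high there (6.882, others 5.974 to 6.084).

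In B220+ array 4 the values were high for Bst2 (9.737, others 8.354 to 8.742), the cholesterol synthesis genes Cyp51 (7.824, others 7.04 to 7.142) and Sqle (7.891, others 7.217 to 7.345), and the cholesterol synthesis mean (8.539, others 8.249 to 8.271). B220+ array 5 was low for H2-DMa (11.3, others 11.43 to 11.45) and high for Rhag (5.826, others 5.206 to 5.378). H4c6 was low in B220+ array 2 (10.93, others 11.4 to 11.58) and Adgre1 was high in B220+ array 3 (6.246, others 6.037 to 6.096).

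Pro-B/pre-B array 1 was high for Bcl2 (9.739, others 9.081 to 9.178), Thy1 (8.567, others 7.837 to 7.904) and the antigen receptor signalling mean (10.26, others 10.2 to 10.21). Pro-B/pre-B array 3 was low for Ly6d (10.7, others 11.77 to 11.88) and Itgb3 (8.034, others 8.192 to 8.221) and high for Ell2 (9.158, others 8.78 to 8.834). Pro-B/pre-B array 4 was low for Ccne1 (9.833, others 9.968 to 9.983) and Cd3g (6.888, others 7.584 to 7.686).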

How the results depend on the processing

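Of 440 called genes, which include every called gene named in the text, 0 changed sign in limma under any of the 19 alternatives, and 380 kept their call whichever 1 array was left out. Bst2, Hoxa9 and Itgb3 lost theirs without 1 array, and Cd300c and Xrcc6 without any 1 of 2. With the spread of all 24 arrays 1762 genes were called (912 higher, 850 lower). Of the 165 called genes named by rule 74 lost their call. The leukaemias and the BCR/ABL pro-B/pre-B samples enter that spread, and why the calls were lost was not tested. On that spread 11 homing genes were called higher and 0 lower in limma, 8 immediate early, 4 BCL2 family and 2 interferon response genes higher, and 10 G1 regulator, 14 nucleotide synthesis, 3 histone, 1 MYC target and 1 cholesterol synthesis gene lower. With 1 array left out the calls numbered 3820 to 5619, and 145 of those 165 genes kept their call every time. With the replicate block 3516 genes were called (1676 higher, 1840 lower), and 9 of the 165 lost their call, Ighm (adjusted p = 0.0876) among them. Quantile scaling gave 5453 calls, cyclic loess 5532, array weights 6217, median centring 4999, an intensity trend 4738, leaving out dim genes 4720 and the mean of all probe sets 4768. The median difference of the IL-7 receptor list was 0.24 and that of the glycolysis list -0.12 with array weights, and that of the stem cell list -0.16 without dim genes. The cause was not tested. With 1 array left out the IL-7 receptor median ran from 0.15 to 0.24 and the stroma median from -0.097 to -0.037, the extremes of 0.24 and -0.097 being without B220+ array 1. Sparc passed the test with array weights (adjusted p = 0.0223). By the replicate block 5 oxidative phosphorylation genes were called higher, against 9.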
